A study of Mus musculus with 24 samples.

Results

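The genes of pulmonary surfactant and of the airway lining were followed in the lungs of young and aged mice: the surfactant proteins Sftpa1 (NM_023134), Sftpb (NM_147779), Sftpc (NM_011359) and Sftpd (NM_009160), the lipid pump Abca3 (NM_013855), the protease Napsa (NM_008437), the secretoglobins Scgb1a1 (NM_011681) and Scgb3a2 (NM_001289643), the type 1 cell gene Ager (NM_001271424) and the cilium regulator Foxj1 (NM_008240). A probe belonged to this set when its accession, without the version, matched the mouse RefSeq entry of 1 of these 10 symbols, and each gene was read from its brightest probe. All 10 were on the array, out of 45622 genes and unnamed targets, and all 10 passed the filter in the lung, which asked that a probe stand well above background in 3 or more of the 6 lungs. RNA came from lung, liver, kidney and white adipose tissue (WAT) of male C57BL/6J mice aged 10 weeks (young) or 90 weeks (aged), with 3 mice for each tissue and age, and the labels name neither a treatment nor a transgene. The aged livers are numbered 1, 2 and 4. The study compared the ages to find genes that are raised in aged organs. Each RNA was labelled with the single dye Cy3 and read on 1 of 24 Agilent arrays of a mouse design. Each tissue may have lain on a slide of its own with both ages on it. If so, a difference between tissues cannot be told apart from a difference between slides. The labels do not say whether tissues were taken from the same mice. All 9 markers used to check the other tissues, such as Alb in liver, Umod in kidney and Adipoq in WAT, were higher on every array of their own tissue than on any other array.

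Alveoli are lined by flat type 1 cells, across which gas diffuses, and by cuboidal type 2 cells, which make surfactant. Surfactant is a film of phospholipid and protein that lowers surface tension. Its lipid is pumped by Abca3 into storage organelles called lamellar bodies, and the hydrophobic proteins SP-B and SP-C, cut from precursors by proteases that include napsin A (Napsa), help the lipid to spread. SP-A and SP-D are collectins that bind microbes. In the conducting airways, club cells secrete the secretoglobins, and multiciliated cells, whose programme is driven by Foxj1, move the mucus. Ager encodes the receptor RAGE and is a marker of type 1 cells. NKX2-1 and FOXA factors are known regulators of surfactant and secretoglobin genes.

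The RefSeq promoter table held 4 of the 10 members (Sftpb, Sftpa1, Abca3 and Ager), each as the 250 bases before and the 50 bases after the start on the build GRCm38.p6. Sftpb is shown because 2 matches to an NKX2-1 core and 1 to a forkhead core lay close to its start, and Abca3 because it was the member called lower with age. Sftpb is at chr6:72304360-72304659 and Abca3 at chr17:24351773-24352072, both on the plus strand, and capitals mark the motif matches.
Sftpb: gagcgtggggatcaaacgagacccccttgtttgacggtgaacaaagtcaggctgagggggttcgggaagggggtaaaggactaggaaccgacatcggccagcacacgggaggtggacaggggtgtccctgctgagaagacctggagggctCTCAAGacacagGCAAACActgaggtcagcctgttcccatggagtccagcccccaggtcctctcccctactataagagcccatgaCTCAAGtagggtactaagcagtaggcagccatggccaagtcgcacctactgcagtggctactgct
Abca3: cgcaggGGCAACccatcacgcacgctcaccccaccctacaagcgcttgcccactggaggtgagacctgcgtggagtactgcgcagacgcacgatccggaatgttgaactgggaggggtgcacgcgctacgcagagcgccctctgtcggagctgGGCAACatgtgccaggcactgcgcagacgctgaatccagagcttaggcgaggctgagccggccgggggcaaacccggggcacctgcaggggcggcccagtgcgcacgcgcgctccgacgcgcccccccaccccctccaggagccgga
In Sftpb the NKX2-1 core CTCAAG began at -100 and at -15 relative to the start, and the forkhead core TGTTTGC was read on the opposite strand (GCAAACA) at -88. Sftpa1 held CTCAAG at -166. In Abca3 the capitals are the RFX motif GTTGCC on the opposite strand (GGCAAC), at -244 and at -97. Ager held none of the letters searched, which were also CACTTGA (NKX2-1), TGTTTAC (forkhead) and TTGCNNCAA (C/EBP). Each was searched on both strands. Of 32851 promoters of the same length, 15.9% held CTCAAG, 5.07% TGTTTGC, 12.5% GTTGCC, 3.06% CACTTGA, 3.65% TGTTTAC and 2.08% TTGCNNCAA. A match describes the letters only.

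In the lung, Abca3 was the only one of the 10 members called different between the ages. It was lower at 90 weeks, at 5.44 ± 0.10 against 5.94 ± 0.06 (mean ± SD of log2 levels, n = 3 mice; levels are relative to the 75th percentile of the array). The difference was -0.51 (SE 0.10, limma adjusted p = 0.0411). Of all 30328 genes tested in the lung, 2.89% were called lower and 2.72% higher, against 1 of 10 members. The median difference of the members was -0.22, against -0.08 over all genes, and 7 of the 10 were lower in sign. In 3 members (Abca3, Scgb3a2 and Ager) the ages did not overlap, as in 35.8% of all genes. In whole tissue, fewer cells of a type and less RNA per cell cannot be told apart.

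Aged lung 2 stood apart from the other lungs. Its 75th percentile of signal was 560, against 844 to 956 in the other lungs, or 64.1% of the young mean. Its signal before scaling was 62.4% of the young mean in the median probe with a signal of 100 to 1000, but 76.3% among the 176 probes with a signal of 100000 to 200000 and 86.8% among the 49 probes above 200000. Scaling by the percentile therefore placed the brightest probes of this lung high, by a median of 0.44 above the young mean among those 49 probes, against -0.04 in aged lung 1 and 0.03 in aged lung 3. No spot was saturated, and the brightest signal of a member reached 70.5% of the saturation value. Of the members, Sftpc, Scgb1a1, Scgb3a2, Ager, Sftpb, Sftpa1 and Sftpd had signals above 100000 in every young lung, and results for these 7 are given with and without aged lung 2. Without it, all 10 members were lower in sign, with a median of -0.29, and limma called none, with 3 at an unadjusted p under 0.05. The median was -0.10 without aged lung 1 and -0.13 without young lung 3, with 7 members lower in sign each time. The part of the dim array in these differences was not tested.

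**Figure D1:**
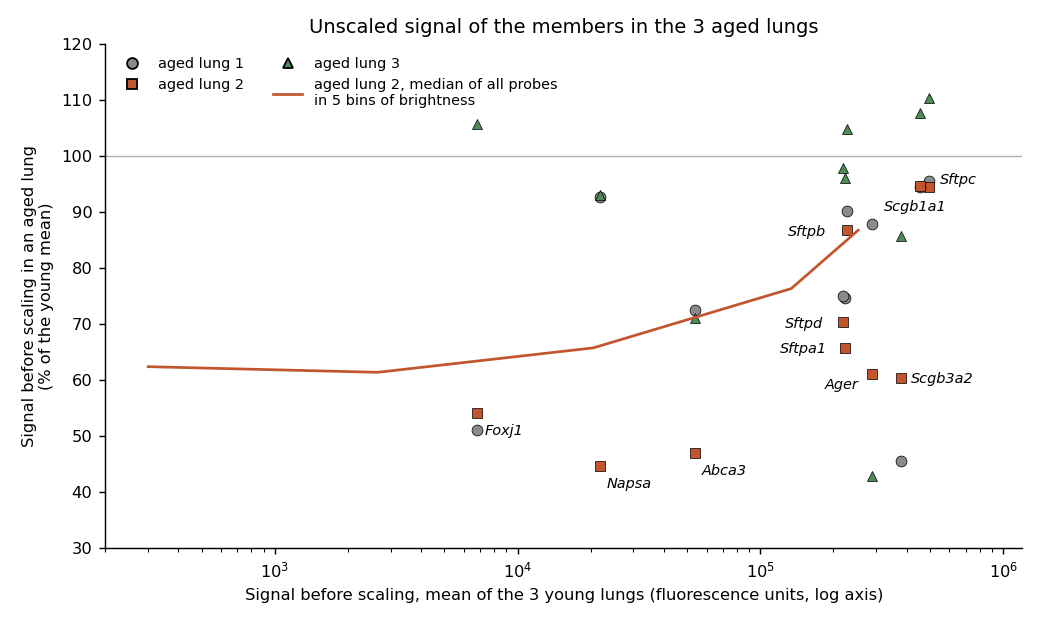
Signal before scaling in each of the 3 aged lungs as a percentage of the mean of the 3 young lungs (vertical axis) against that young mean (horizontal, log axis), 1 point per member and lung. The line joins the median of all probes in 5 ranges of brightness for aged lung 2, each at its median signal over the 6 lungs. It climbs from 62.4% to 86.8%, and Sftpc and Scgb1a1 lie above it at 94.4% and 94.7%.

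Among the surfactant proteins, the level of Sftpc was 9.15, 9.14 and 9.16 in young lungs 1 to 3 and 9.10, 9.71 and 9.16 in aged lungs 1 to 3. Aged lung 3 stood above the young lungs only narrowly (9.161 against 9.157 in young lung 3), and aged lung 2 stood well above them. The signal of aged lung 2 before scaling, 468496, was nevertheless the lowest of the 6 in a range up to 547418. The difference was 0.17 (SE 0.18, adjusted p = 0.550) and became -0.02 without that lung. Sftpb, which is needed for lamellar bodies to form, gave 8.03, 8.01 and 8.05 in the young and 7.90, 8.47 and 7.97 in the aged lungs. Again the same lung was high and both others lay below all the young lungs. The difference of 0.08 (SE 0.16, adjusted p = 0.775) became -0.10 without it. A dimmer second probe of Sftpb gave -0.40, from 5.12 ± 0.28 to 4.72 ± 0.07 (SD, n = 3), so the 2 probes of this gene disagree in sign. The collectin Sftpa1 was at 8.02, 7.93 and 8.05 in young and 7.60, 8.04 and 7.81 in aged lungs, a difference of -0.18 (SE 0.13, adjusted p = 0.402). Sftpd, the other collectin, was at 7.92, 7.89 and 8.10 in young and 7.57, 8.10 and 7.81 in aged lungs, a difference of -0.14 (SE 0.16, adjusted p = 0.590). In both collectins the ages overlapped only through aged lung 2, without which the differences were -0.30 (adjusted p = 0.164) and -0.28 (adjusted p = 0.220). Without aged lung 1 they were -0.0761 (adjusted p = 0.707) and -0.0125 (adjusted p = 0.964).

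For the genes that load and cut surfactant, the 6 lungs divided cleanly in 1 case. Abca3 was at 5.98, 5.87 and 5.98 in young lungs and at 5.50, 5.49 and 5.32 in aged lungs. Every aged lung lay below every young one, and its signal of 25252 to 54415 lies in a range of brightness where the median probe of aged lung 2 was raised by 0.04. The call did not hold when a mouse was left out: leaving out any 1 mouse gave differences from -0.54 to -0.45 with adjusted p from 0.0532 to 0.166. Napsa was at 4.38, 4.53 and 4.94 in young and 4.55, 4.12 and 4.40 in aged lungs. The ages overlapped, and the difference was -0.26 (SE 0.19, adjusted p = 0.404).

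**Figure D2:**
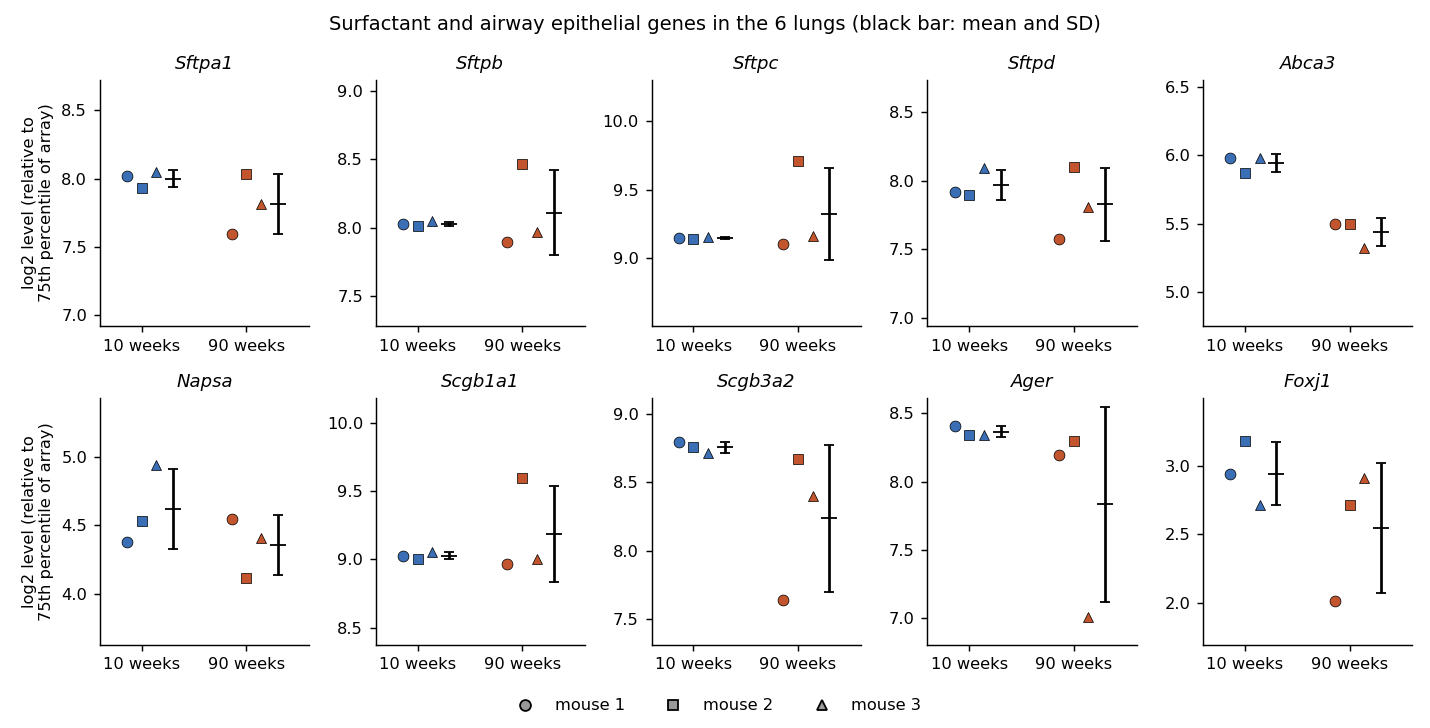
Log2 level of the 10 members relative to the array's 75th percentile (vertical axis, the same span of 1.8 in every panel) in young (blue) and aged (orange) lungs, 1 symbol per mouse, with the mean and SD of each age in black. Abca3 is the only called difference. Aged lung 2 (square) is high in Sftpb, Sftpc and Scgb1a1, aged lung 1 (circle) is low in Scgb3a2 and Foxj1, and aged lung 3 (triangle) is low in Ager.

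Neither of the 2 club cell secretoglobins was called. Scgb1a1 was at 9.03, 9.001 and 9.06 in young and 8.96, 9.59 and 9.005 in aged lungs, with aged lung 2 high and a difference of 0.16 (SE 0.18, adjusted p = 0.603) that became -0.04 without it. Scgb3a2 was at 8.79, 8.76 and 8.72 in young lungs and 7.64, 8.67 and 8.40 in aged lungs. All aged lungs lay below the young ones, narrowly in aged lung 2 and most in aged lung 1, whose signal before scaling was 45.5% of the young mean. The spread of the aged lungs (SD 0.54 against 0.04 in the young) left the difference of -0.52 (SE 0.26, adjusted p = 0.264) uncalled. It was -0.74 (adjusted p = 0.133) without aged lung 2 and -0.22 without aged lung 1.

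Ager showed the widest spread among the aged lungs. It was at 8.41, 8.34 and 8.34 in young lungs and 8.20, 8.29 and 7.01 in aged lungs. Aged lung 3 alone made most of the difference of -0.53 (SE 0.35, adjusted p = 0.364), which was -0.12 without that mouse and -0.76 (adjusted p = 0.232) without aged lung 2. All 5 probes of Ager were lower in the aged mean, by -0.53 to -0.87. The fit of all 24 arrays reads Ager from another probe than the lung does and gave -0.87 (SE 0.23), with adjusted p = 0.0498. That fit takes 1 spread per gene from all 8 groups, so this SE is not that of the lungs alone. By the same probe the SD was 0.10 in young and 0.74 in aged lungs, but 0.015 in young and 0.021 in aged kidneys.

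Foxj1 was at 2.94, 3.18 and 2.72 in young and 2.01, 2.72 and 2.91 in aged lungs. Only aged lung 1 lay below the young range, and the difference of -0.40 (SE 0.26, adjusted p = 0.365) was not called and was -0.13 without that mouse.

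The wider gene lists showed what the members sit among. General epithelial genes were called lower in 8 of 14 cases and higher in none, with all 14 lower in sign and a median of -0.65. Cldn7, a tight junction claudin, was at 3.53, 3.43 and 3.47 in young and 2.49, 2.59 and 2.86 in aged lungs, and it fell by 0.83 (SE 0.12, adjusted p = 0.0236). Epcam, the epithelial adhesion molecule, fell by 0.76 (SE 0.10, adjusted p = 0.0179), and the keratin Krt18 fell by 0.76 (SE 0.09, adjusted p = 0.0147). The summed level of the list was 62.3% to 66.3% of the young mean in the 3 aged lungs, so the 3 aged lungs were close to each other. None of the 8 calls held without any 1 of the young lungs or in the fit of all 24 arrays (1 gene at an unadjusted p under 0.05), while all 14 genes stayed lower in sign.

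Of 16 other genes of type 2 cells and surfactant handling, 4 were called lower and none higher, all 16 were lower in sign, and the median was -0.57. The chemokine Cxcl15, also called lungkine, was at 4.98, 4.87 and 4.78 in young and 3.71, 3.48 and 3.21 in aged lungs, and it fell by 1.41 (SE 0.15, adjusted p = 0.0131). The calcium-binding S100g fell by 0.91 (SE 0.15, adjusted p = 0.0327), and Slc34a2, which carries phosphate out of the alveolar fluid, fell by 0.69 (SE 0.14, adjusted p = 0.0457). The fourth was Lamp3, a membrane protein of lamellar bodies, at -0.59 (SE 0.11, adjusted p = 0.0439), named after its value was seen. No call in this list held without any 1 of the young lungs, and without aged lungs 1, 2 or 3 the calls numbered 7, 1 and 2.

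Of 18 lung epithelial transcription factors, 4 were called lower and none higher, with a median of -0.47. Nkx2-1, the lineage factor of lung epithelium, was at 3.002, 2.75 and 2.92 in young and 2.31, 2.29 and 1.97 in aged lungs, and it fell by 0.70 (SE 0.13, adjusted p = 0.0417). Foxa2 fell by 0.68 (SE 0.10, adjusted p = 0.0247). Foxp2, a forkhead repressor, fell by 1.23 (SE 0.16, adjusted p = 0.0180), with aged lung 1 not well above background. Grhl2, an epithelial factor also named after its value was seen, was called at -0.63 (SE 0.12, adjusted p = 0.0440). No call held without any 1 of the young lungs, 2 were made without aged lung 1 and 1 without aged lung 3.

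The 9 measured type 1 cell genes were all lower in sign and apart between the ages, with a median of -0.79, but limma called none, with 6 at an unadjusted p under 0.05 and 0 by the methods' t-test, adjusted or not. Without aged lung 1, Cldn18, a claudin named after its value was seen, was called lower (-1.17, adjusted p = 0.0289). Akap5 was at 5.12, 4.83 and 4.43 in young and 4.39, 3.67 and 2.35 in aged lungs (-1.33, adjusted p = 0.174). Hopx, a homeodomain protein of type 1 cells, was at 6.50, 6.41 and 6.34 in young and 5.93, 6.10 and 4.66 in aged lungs (-0.85, adjusted p = 0.215). The summed level of the list was 79.6%, 68.8% and 35.7% of the young mean in aged lungs 1 to 3. Aged lung 3 was the lowest in this list and in Ager.

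The 14 other club and secretory cell genes had a median of -1.32, with 10 apart between the ages and 3 higher in sign. Those 3, named after their values were seen, were Pigr (0.21, adjusted p = 0.534), Cbr2 (0.13, adjusted p = 0.672) and Cyp2f2 (0.0139, adjusted p = 0.966). Limma called none of the 14, with 10 at an unadjusted p under 0.05, and the methods' t-test gave 6 at that threshold and 0 after Benjamini-Hochberg adjustment. Limma called 7 lower without aged lung 3 and 7 in the fit of all 24 arrays. Genes of the secretory lining of larger airways varied most. Reg3g, an antimicrobial lectin, was at 5.49, 5.28 and 4.91 in young lungs and at -5.79, -3.61 and 3.11 in aged lungs, the first of these not well above background (-7.33, adjusted p = 0.106). Bpifb1 was at 5.64, 5.75 and 5.63 in young lungs and at -3.90, -1.61 and 3.37 in aged lungs (-6.38, adjusted p = 0.0907). Scgb3a1, a secretoglobin outside the members and named after its value was seen, was at 7.91, 7.89 and 7.75 in young and 0.05, 2.27 and 6.50 in aged lungs. The aged lungs kept 1 order in these 3 genes, with lung 1 lowest and lung 3 highest. The cardiac muscle genes had the same order, with a summed level of 7.59%, 36.6% and 84.6% of the young mean in aged lungs 1 to 3 and 45.9% to 139% in the young lungs. Limma called no cardiac gene, with 1 at an unadjusted p under 0.05, and the methods' t-test gave 1 at that threshold and 0 after adjustment. The largest differences were those of Sln (-2.57, adjusted p = 0.216) and Tnni3 (-2.31, adjusted p = 0.199). Without aged lung 3, Actc1, named after its value was seen, was called lower (-1.84, adjusted p = 0.0482). The part of the tissue that these cardiac genes mark in the lower secretory levels was not tested.

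**Figure D3:**
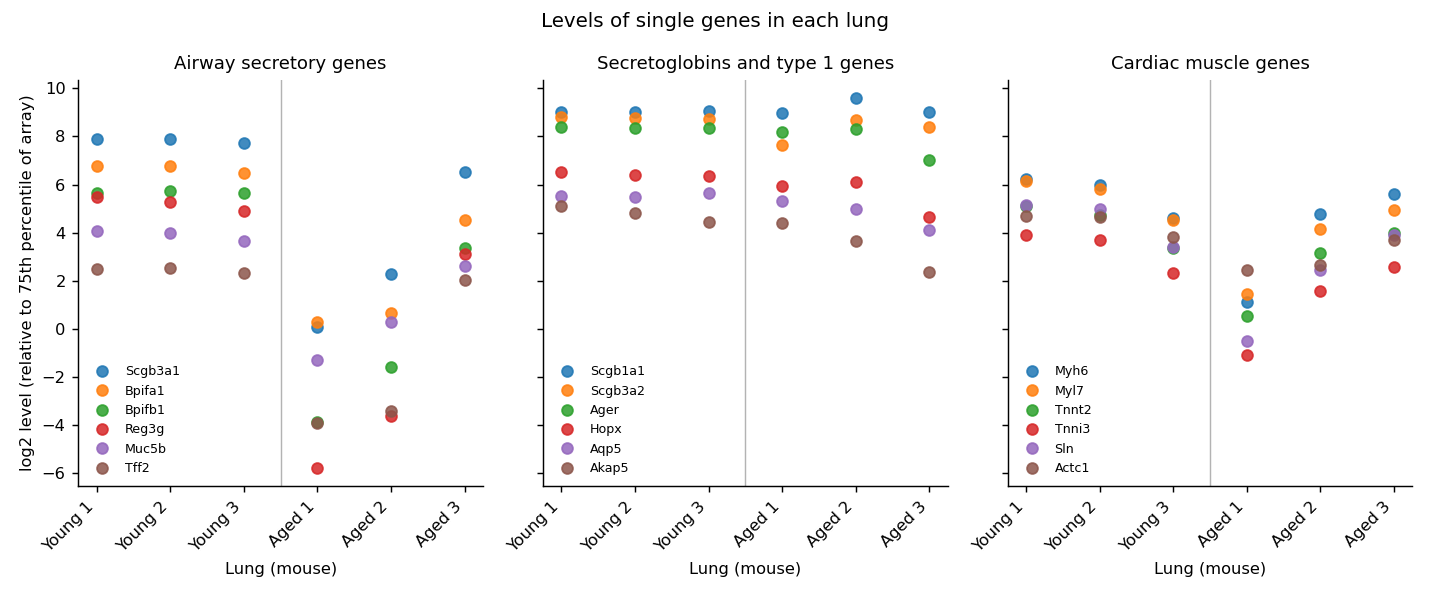
Log2 levels relative to the array's 75th percentile (vertical axis) of 6 airway secretory genes, of 2 secretoglobins with 4 type 1 cell genes, and of 6 cardiac muscle genes in each of the 6 lungs (horizontal axis, young left of the line), 1 point per lung and gene. The left panel holds the genes with the largest falls among the 14 of the secretory list. Pigr, Cbr2 and Cyp2f2 of that list, which were higher in sign, are not shown. The cardiac gene Nppa, also higher in sign, is not shown either. The secretory genes in the left panel lie below the young lungs in every aged lung, least in aged lung 3 and most in aged lung 1. Scgb1a1 in the middle panel lies between 8.96 and 9.59 in every lung.

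Among the motile cilium genes limma called none of 23, with 4 at an unadjusted p under 0.05, and the methods' t-test gave 2 at that threshold and 0 after adjustment. The median was -0.36, and the largest differences were those of Rsph1, a radial spoke protein (-0.64, adjusted p = 0.159), and Dnah5, a dynein heavy chain (-0.54, adjusted p = 0.222). Of 10 regulators of ciliogenesis, Gmnc fell by 2.28 (SE 0.43, adjusted p = 0.0419), from 3 of 3 young to 2 of 3 aged lungs well above background, and Deup1, which builds centrioles in multiciliated cells, fell by 0.70 (SE 0.14, adjusted p = 0.0494). The median of the 10 was -0.20. None was called higher, and 3 were higher in sign, Plk4 (0.38), Cep152 (0.20) and Mcidas (0.14), named after their values were seen. Neither the call of Gmnc nor that of Deup1 held without any 1 of the young lungs or without aged lung 2.

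Markers of other cells moved in the same lungs. Of 9 T and cytotoxic cell genes, 6 were called higher, led by Cd3g at 2.05, Cd5 at 1.63 and Cd3d at 1.58, and the summed level of the list was 141% to 312% of the young mean in the aged lungs against 71.1% to 141% in the young. The neutrophil and bone marrow list summed to 1745% of the young mean in aged lung 2 and to 189% and 360% in the other aged lungs, with only Ngp called (8.59, adjusted p = 0.0483). Ngp was well above background in 1 of 3 young lungs, so the size of its difference depends on signal near background. Limma called no B cell or plasma cell gene, with 1 at an unadjusted p under 0.05 and 0 by the methods' t-test, adjusted or not, and called 4 higher without aged lung 2. The list summed to 601% and 664% in aged lungs 1 and 3 and 42.6% in aged lung 2, with Jchain at 3.74 (adjusted p = 0.126) and Mzb1 at 2.45 (adjusted p = 0.247). In the other lists 1 gene each was called: Csf2rb, a receptor chain needed by macrophages that clear surfactant, rose by 1.03 (SE 0.20, adjusted p = 0.0421) among 14 macrophage genes, the endothelial Vwf rose by 1.71 (SE 0.26, adjusted p = 0.0245) among 10, and the smooth muscle gene Cnn1 fell by 1.75 (SE 0.25, adjusted p = 0.0221) among 10. Without young lungs 1 or 2 no call in any of these lists held, and without young lung 3 1 call, of a T cell gene, did. Without aged lung 3 the T cell calls numbered 3 and neither Ngp nor Csf2rb was called. Without aged lung 2 Csf2rb was not called, and 3 neutrophil genes and 4 fibroblast and smooth muscle genes were. The part of these cells in the lower epithelial levels was not tested.

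**Figure D4:**
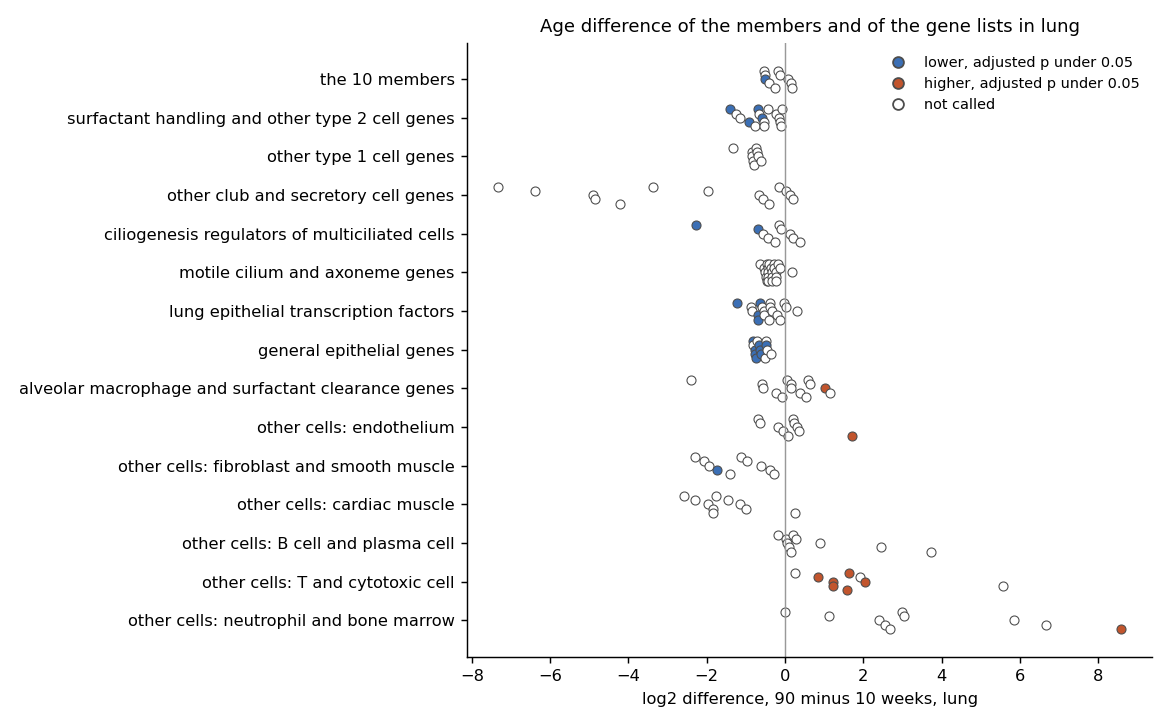
Log2 difference, 90 minus 10 weeks, in lung (horizontal axis) for the 10 members and for every measured gene of the 14 lists, 1 point per gene, filled where the adjusted p was under 0.05. The general epithelial genes lie in a narrow band between -0.83 and -0.36, while the secretory genes reach -7.33.

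Outside the lung the members differed in how far they were restricted to it. Sftpb was well above background on no array of the other tissues and Sftpc on 1 of 18, so folds are lower bounds: at 10 weeks Sftpc was at least 24607-fold higher in lung than in kidney, and Sftpb at least 11321-fold. Sftpa1 was measured outside the lung in liver alone, at -2.42 ± 0.93 at 10 weeks against 7.93 to 8.05 in lung (SD, n = 3). Scgb1a1 and Scgb3a2 were measured at low levels in every tissue, with means from -5.50 to -2.83 and from -2.98 to -1.96. Against the mean of the other 3 tissues, all 10 members were called higher in lung at both ages, where 24.6% of genes at 10 weeks and 21.3% at 90 weeks were called higher. Sftpb and Sftpc passed the filter of this fit only through the lungs, so their calls add nothing to that count. At 10 weeks the difference ran from 0.86 (SE 0.15) in Abca3 to 15.79 (SE 0.35) in Sftpc, and where the other tissues were below background the size depends on signal that was not well above it.

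Abca3 and Napsa were higher in young kidney than in young lung. Abca3 was 6.53, 6.55 and 6.49 in young kidneys, above all 3 young lungs, and lung minus kidney was -0.58 (SE 0.18, adjusted p = 0.00874). Napsa, which kidney is known to make, was at 7.18, 7.16 and 7.25 in young kidneys, and lung minus kidney was -2.58 (SE 0.48, adjusted p = 0.000136). At 90 weeks lung and kidney were not shown to differ in either gene, at -0.17 (adjusted p = 0.441) in Abca3 and -0.98 (adjusted p = 0.0962) in Napsa. For Napsa the order in young mice was kidney, lung, WAT (-0.49 ± 0.25) and liver (-3.55 ± 0.48). For Abca3 it was kidney, lung, liver (4.40 ± 0.20) and WAT (4.31 ± 0.48), the last pair not differing beyond their spread.

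**Figure D5:**
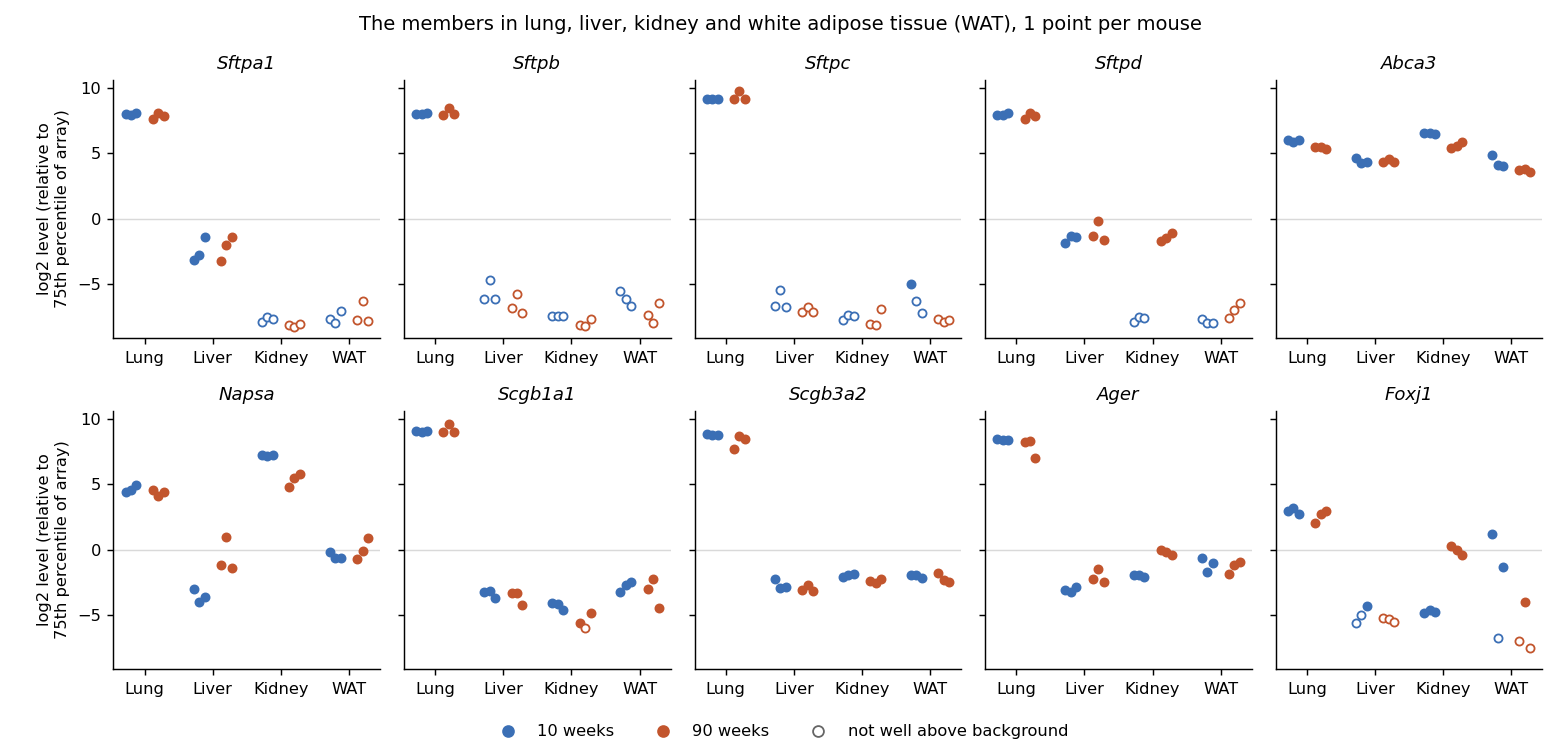
Log2 level of each member relative to the array's 75th percentile (vertical axis, shared) in lung, liver, kidney and WAT at 10 (blue) and 90 weeks (orange), 1 point per mouse, open where the probe was not well above background. Napsa and Abca3 are higher in young kidney than in young lung, and Sftpd and Foxj1 rise in aged kidney.

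Of the 7 members tested in kidney, all 7 were called, 2 higher and 5 lower, in a tissue where 20.6% of all genes were called higher and 42.6% lower. In each of the 7 the ages did not overlap, as in 70.7% of all kidney genes. In no young kidney did Sftpd stand well above background, whereas it was measured in all 3 aged kidneys, at -1.67, -1.45 and -1.06, which made it at least 16.5-fold higher (adjusted p = 1.8e-05). It passed the filter only through the aged kidneys, so its call adds nothing to the count of members called. Foxj1 rose from -4.84, -4.62 and -4.74 in young to 0.28, -0.07 and -0.39 in aged kidneys, a difference of 4.67 (SE 0.18, adjusted p = 2.94e-05). The aged kidneys were still below every lung in both genes. Of 21 motile cilium genes tested in kidney, 7 were called higher and 8 lower, with a median of -0.06. Tekt1, a filament protein of cilia and named after its value was seen, was at least 6.34-fold higher. It passed the filter only through the aged kidneys, so its call adds nothing to the 7 called higher. The dynein gene Dnah11, named in the same way, had an age difference of -2.42 in kidney, the largest fall in this list.

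Napsa fell by 1.86 in kidney (SE 0.24, adjusted p = 0.00112), to 4.79, 5.46 and 5.77, and Abca3 fell by 0.92 (SE 0.13, adjusted p = 0.0014), to 5.41, 5.56 and 5.86. Scgb1a1 fell by 1.20 (SE 0.31, adjusted p = 0.0159) near background, with 2 of 3 aged kidneys well above it, and Scgb3a2 fell by 0.43 (SE 0.12, adjusted p = 0.0181). The median difference of all kidney genes was -0.23, or 0.14 under scaling to the spike-in spots. Under that scaling the share of higher genes among all those called in kidney was 65.8% against 32.6%, the calls of Ager, Scgb1a1 and Scgb3a2 were lost, and those of the other 4 members held. Ager read in opposite directions by probe. The brightest probe in kidney (A_55_P2718127) gave -0.50 (adjusted p = 0.00133), while the brightest probe in lung (A_55_P2723599) went from -1.92, -1.96 and -2.09 in young kidneys to -0.01, -0.22 and -0.38 in aged ones.

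In liver 7 members were tested and 1 was called, Napsa, which rose from -3.03, -3.99 and -3.61 to -1.19, 0.96 and -1.43 (2.99, SE 0.62, adjusted p = 0.0175), where 10.5% of all genes were called higher. The aged livers spread widely. The call was lost without young liver 2 (2.77, adjusted p = 0.0649). In WAT 6 members were tested and none was called by limma, with 0 at an unadjusted p under 0.05, where 2.59% of all genes were called. The fit of all 24 arrays called 3 members lower in WAT. The share of all genes that this fit called in WAT was not counted, so nothing is read from the number 3. The 3 were Abca3 (-0.59, adjusted p = 0.0274, against 0.295 in WAT alone), Foxj1 (-3.84, adjusted p = 0.0377, against 0.371) and Sftpc (-1.61, adjusted p = 0.0143). Sftpc was well above background in 1 of the 6 WAT samples and entered this fit only through the lungs. Foxj1 spread most there, at 1.19, -6.74 and -1.36 in young and -6.96, -3.97 and -7.52 in aged WAT, with 3 of these 6 values well above background.

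The age difference itself was compared between lung and the mean of the other tissues, where 9.32% of all genes were called. Only Sftpd was called among the members (-2.67, SE 0.36, adjusted p = 0.000491). Its size rests on signal below background in young kidney and in WAT, and it was -1.45 (adjusted p = 0.00601) with normexp background correction. Ager came nearest among the rest (-0.77, SE 0.27, adjusted p = 0.0760), with -0.35 (adjusted p = 0.184) without aged lung 3 and -1.06 (adjusted p = 0.0148) without aged lung 1.

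The genes whose pattern over all 24 arrays was most like that of a member were found by their correlation. Sfta3-ps, a surfactant-associated pseudogene, was among the 3 nearest genes for Sftpb (Pearson r = 0.994), Sftpc (0.993), Scgb1a1 (0.986), Scgb3a2 (0.987) and Ager (0.991). Kcne2, a potassium channel subunit, was among them for Sftpb (0.992), Sftpc (0.991) and Ager (0.991). The gene nearest to Sftpa1 was Cxcl15 (0.984), to Sftpd Gprc5a (0.973), to Abca3 Intu (0.982), to Napsa Atp11a (0.972) and to Foxj1 Ccdc184 (0.954). These correlations are across 24 arrays that share 4 tissues, each possibly on its own slide.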

How the data were processed

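RNA of 3 mice per tissue and age was measured on 24 single-colour arrays. The authors deposited intensity values. Per the file headers, Agilent Feature Extraction 11.0.1.1 read 62976 spots an array and wrote a background-subtracted processed signal, deposited unscaled, with a flag for spots well above background. The design in these headers is a mouse design on mm9, although the methods name a human kit. The number of arrays limits the precision, and 58.6% to 71.1% of the probes of an array were well above background.

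From these, 1841 flagged spots were left out, signals were put on the log2 scale, spots of a probe were averaged and each array's 75th percentile was taken off. Accessions were matched to RefSeq symbols of GRCm38.p6 (58.3% of 56605 probes), used for names and promoters only. Probes well above background on at least 3 arrays of a fit were kept, the brightest per gene. Ages were compared in each tissue by limma 3.58.1 (R 4.3.3) at an adjusted p threshold of 0.05 (Benjamini-Hochberg, all genes), and tissues in a fit of 8 groups over 24 arrays, which treats arrays as independent. Lower bounds on folds set the dimmer group at the lowest signal well above background on each array. The fit of the ages in lung was run on simulated data, and the other fits were not. P-values measure the spread between these mice.

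The members and gene lists were chosen with earlier results of these data known. From each list the text names the called genes, at most the 3 largest in each direction, or the 2 largest where none is called. For likeness it names the nearest of the 3 genes with the highest r, and those shared by several members. Alternatives were normexp (offset 16), quantile normalization, spike-in scaling (350 spots), median centring, no filter, the mean of a gene's probes, 1 fit of all arrays, the replicate block, the methods' t-test and each mouse left out. The paper's other experiments and 1 file without measurements were not used here.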

Additional observations from a re-analysis of the deposited data

Results flagged for a closer look

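The age difference of Sftpd in lung minus its mean in the other tissues was -2.67 (SE 0.36, limma adjusted p = 0.000491), with Sftpd well above background in 3 of 3 aged kidneys and 0 of 3 young ones. The following opposite directions between tissues were not tested. Napsa rose with age in the mean of the livers and fell in that of the kidneys, a gap of 4.85 between the 2 differences. Ager was lower in the aged mean of lung and of kidney but higher in that of WAT, with gaps of -0.81 (lung minus WAT) and -0.78 (kidney minus WAT). However, the lung value comes from probe A_55_P2723599 and the others from A_55_P2718127, and by the lung's probe the ages overlapped in WAT.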

How the results depend on the processing

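Abca3 was called in lung under 5 of 15 alternatives, and Ager under 1. The number of members called in lung was 1 and became 0 with no filter on dim probes (where 45622 entries were tested), 0 with the replicate block, 0 with the methods' t-test after Benjamini-Hochberg (1 at its unadjusted threshold) and 0 to 0 with each mouse left out. For the gene lists the 28 calls became 5, 0 and 6 under those first 3 settings and 0 to 30 with a mouse left out. They were lost without any young lung (0 without young lungs 1 or 2, 1 without young lung 3). The replicate numbers do not pair the mice, which are different animals (correlations of same-numbered lungs -0.17 to -0.06). In liver the 1 call became 0 with the replicate block and 0 to 1 with a mouse left out. In kidney 7 calls became 4 with spike-in scaling and 5 to 7 with a mouse left out. In WAT the count was 0 with the replicate block, spike-in scaling and each mouse left out. Against the mean of the other tissues, all 10 members were higher in lung under every alternative run at both ages. Against young kidney alone, Abca3 (-0.58) and Napsa (-2.58) were lower in young lung. Sftpb and Sftpc passed the filter of this fit only through the lungs. The count for the difference of the age change was 2, with Ager as the second, under quantile normalization, spike-in scaling and the mean of probes, and 1 to 2 with a lung left out.

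Sftpb in lung turned to -0.068 with quantile normalization, -0.003798 with spike-in scaling and -0.16 with the mean of probes. With a lung left out it ran from -0.096 to 0.187, Sftpc from -0.0179 to 0.285 and Scgb1a1 from -0.0435 to 0.270, each lowest without aged lung 2. The difference of Abca3 between lung and the other tissues, near 0, turned to -0.0481 with normexp, -0.32 with quantile normalization, -0.27 with spike-in scaling and -0.0157 with median centring and ran from -0.0322 to 0.0634 with a lung left out, and that of Scgb3a2 from -0.44 to 0.0794, positive without aged lung 1. None of these was called, and the cause was not tested. Of all lung genes 1700 were called, but 1 with the replicate block, 440 with no filter, 231 with the methods' t-test, 965 in the fit of all arrays, and 2, 25 and 204 without young lungs 1, 2 and 3. The share of higher genes among those called in lung was 48.5%, against 69.1% with no filter and 62.4% in the fit of all arrays. The share of higher genes among those called in liver was 78.6% with spike-in scaling against 38.1%.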
